A study of Mus musculus with 13 samples.

Results

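The NMDA receptor subunits considered here are the genes Grin1, Grin2a, Grin2b, Grin2c, Grin2d and Grin3a. Probe sets were chosen by gene symbol: every probe set with exactly 1 listed symbol that is one of these names or an older alias. This gave 11 probe sets for 5 of the 6 genes, among 18193 genes with such a probe set. Grin1, the obligatory subunit, had no probe set under its symbol in the probe table used and was not analysed here.

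The samples were brain hemispheres, 1 expression array each, from 13 males of the mouse strain C3HeB/FeJ; the labels name no genetic change in either group. The creatine-fed group of 6 mice ate pellets containing 1% creatine, a compound that cells use to buffer ATP, for 6 months. The untreated group of 7 mice ate pellets of matched calories without creatine. Feeding began at an age of 10 to 12 weeks, and the mice are labelled as biological replicates. A hemisphere mixes many regions and cell types, so fewer cells of a type and less RNA per cell cannot be told apart in these values.

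NMDA receptors are glutamate-gated channels that open only when glutamate and a co-agonist, glycine or D-serine, are bound and depolarization has expelled magnesium from the pore. Each channel combines GluN1, encoded by Grin1, with GluN2 subunits from Grin2a to Grin2d or GluN3 subunits such as the product of Grin3a. The calcium they admit drives synaptic plasticity, and the GluN2 type sets how long the channel stays open and how strongly magnesium blocks it. In the adult rodent brain GluN2A and GluN2B are the main forebrain subunits, GluN2C is typical of cerebellar granule cells, and GluN2D of diencephalon, brainstem and interneurons.

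The tissue label was checked against fixed marker genes, each read at its probe set of highest mean. Of the 8 neuron markers, 8 were above the array median on every array, as were 6 of 6 astrocyte, 5 of 5 oligodendrocyte and 6 of 6 microglia markers. The count was 2 of 5 for endothelium, 2 of 5 for choroid plexus and 0 of 4 for blood. Among regions it was 6 of 6 for striatum, 8 of 9 for cortex and hippocampus and 6 of 9 for cerebellum. It was 5 of 7 for thalamus and midbrain, 1 of 5 for olfactory bulb and 0 of 6 for brainstem and spinal cord. The share over all genes is not given here. The array median, the middle intensity of all probe sets on an array, ran from 37 to 45 and serves here as a mark of dimness, because no detection call was used. Cerebellar content differed widely between mice. Gabra6, a GABA-A receptor subunit of cerebellar granule cells, read 22 in untreated replicate 3 but 1248 to 2494 in the other untreated mice and 556 to 1952 in the creatine-fed mice. The same mouse had the highest summed olfactory bulb markers, 704 against 153 to 489 in the other mice. Results that rest on it are given with and without it.

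No NMDA receptor probe set passed the test between the groups. The test was limma's moderated fit on log2(value + 16) over all 45037 probe sets, with Benjamini-Hochberg adjustment and a threshold of 0.05. None of the 11 passed, and the smallest adjusted p was 0.284. Over all probe sets 0.00888% passed. At an unadjusted p under 0.05 there were 2 of the 11, or 18.2%, where 11.9% of all probe sets were that low. One of them was higher with creatine (4.17% of all probe sets) and 1 was lower (7.7%). The groups overlapped at all 11, while 0.56% of all probe sets had groups without overlap. Means were higher in creatine-fed mice at 6 and lower at 5, beside 42.2% higher over all probe sets.

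**Figure D1:**
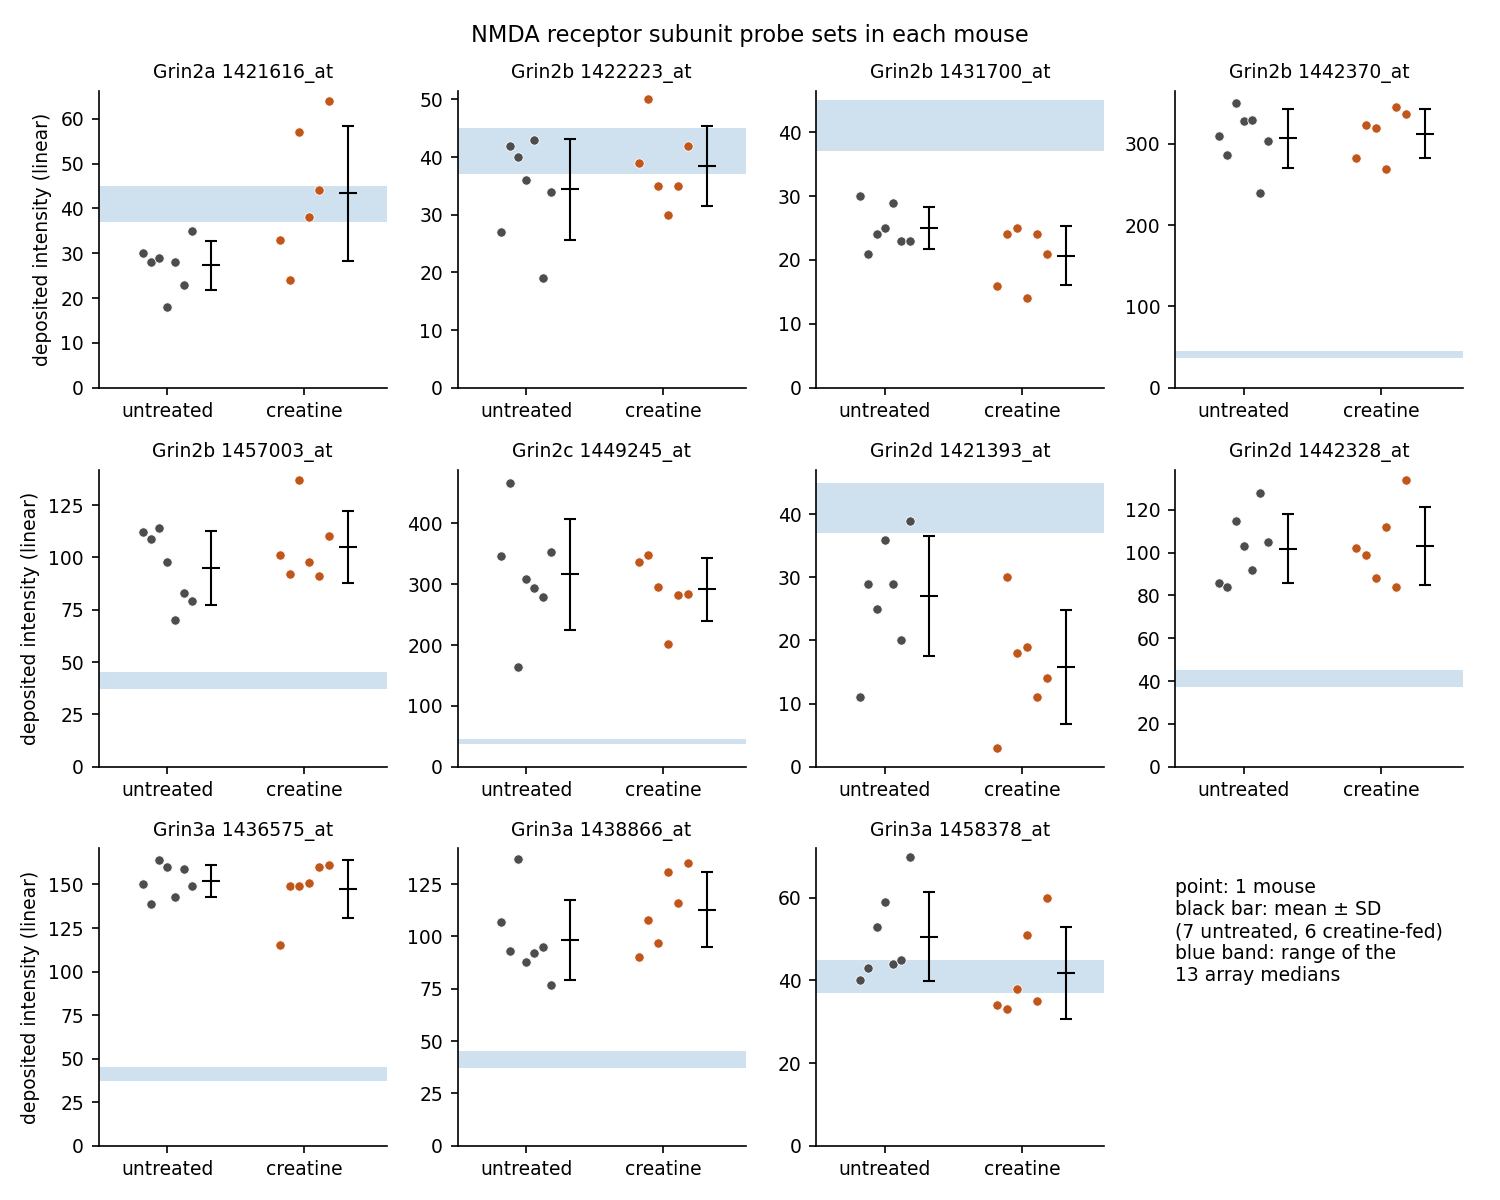
Deposited intensity on a linear axis from 0 for each of the 11 NMDA receptor probe sets, with 1 point per mouse in replicate order, the mean ± SD of the 7 untreated and 6 creatine-fed mice as a black bar, and the range of the array medians (37 to 45) as a blue band. The groups overlap in every panel. Grin2a 1421616_at, Grin2b 1422223_at and 1431700_at, Grin2d 1421393_at and Grin3a 1458378_at lie in or near the band or below it in most mice.

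Grin2a encodes GluN2A, whose share in forebrain receptors grows during postnatal life. Its only probe set, 1421616_at, read from 18 to 35 with a median of 28 in untreated mice and from 24 to 64 with a median of 41 in creatine-fed mice. The creatine-fed mice read 33, 24, 57, 38, 44 and 64 for replicates 1 to 6, so 4 of them lay above every untreated mouse and replicate 2 lay below the untreated mean. The means were 43.3 ± 15 (SD, n = 6) with creatine and 27.3 ± 5.41 (SD, n = 7) without. The log2 difference was 0.43 ± 0.15 (SE), with a 95% interval from 0.11 to 0.74, an unadjusted limma p of 0.012 and an adjusted p of 0.284. An exact 2-sided permutation test over all 1716 assignments of 6 and 7 mice gave an unadjusted p of 0.0221.

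Grin2a was dim. It exceeded the median of its own array in 4 of 6 creatine-fed mice and in 0 of 7 untreated mice, and the offset of 16 is large beside such values. With an offset of 50 the log2 difference was 0.26, and with an offset of 1 it was 0.60. Of the cerebral cortex and hippocampus markers, 8 of 9 had higher means with creatine (median log2 difference 0.05), beside 41.5% of all genes. None of these markers passed the limma test, and 1, Rorb, had an unadjusted p under 0.05. Their summed intensity ran from 2671 to 3662 in untreated and from 3038 to 4273 in creatine-fed mice, and none of the 9 was at 0 in group mean. With the mean of these markers as a covariate the Grin2a difference was 0.32 with an unadjusted limma p of 0.0547. Without untreated replicate 3 it was 0.44 (adjusted p = 0.319).

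Grin2b encodes GluN2B, the subunit with slow decay that prevails early in life and persists in the adult forebrain. It was read by 4 probe sets, 2 of them above the array median on all 13 arrays. The brightest, 1442370_at, ran from 240 to 350 with a median of 310 in untreated mice and from 269 to 345 with a median of 321.5 in creatine-fed mice. The groups covered nearly the same range. The means were 313 ± 30.5 (SD, n = 6) and 307 ± 35.9 (SD, n = 7), and the log2 difference was 0.03 ± 0.09 (SE), with a 95% interval from -0.16 to 0.22 and an adjusted limma p of 0.938.

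The other 3 probe sets of Grin2b did not pass either. At 1457003_at the creatine-fed mice ran from 91 to 137 and the untreated mice from 70 to 114, a log2 difference of 0.13 ± 0.12 (SE, adjusted p = 0.716). Only creatine-fed replicate 3, at 137, lay above all untreated mice. The probe sets 1422223_at and 1431700_at were dim and had differences of opposite sign, 0.12 and -0.17. At 1431700_at, which lay under the array median on every array, creatine-fed replicates 1 and 4 read 16 and 14 and lay below the lowest untreated value of 21.

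Grin2c encodes GluN2C, a subunit with weak magnesium block. Its probe set 1449245_at was above the array median in all 13 mice and varied more between mice than any other bright member. Untreated mice ran from 164 to 467 with a median of 308, and creatine-fed mice from 201 to 348 with a median of 290. Both extremes were untreated mice, replicate 3 at 164 and replicate 2 at 467. The means were 291 ± 52.2 (SD, n = 6) with creatine and 316 ± 91.4 (SD, n = 7) without, and the log2 difference was -0.08 ± 0.19 (SE), with a 95% interval from -0.48 to 0.32 and an adjusted limma p of 0.916. Its SD over the 13 mice, 0.35 on the log2 scale, stood at percentile 84.9 among all probe sets.

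That variation ran with the level of cerebellar marker RNA in each sample. Pearson's r between Grin2c and the mean of 9 cerebellum markers was 0.906 over the 13 mice, with a permutation p of 1e-05, the smallest that 100000 resamples can give, and 0.0003 after adjustment over 30 relations. Spearman's rho was 0.896 (permutation p = 8e-05, adjusted 0.0024). The 30 relations are those of 5 subunits at their brightest probe set with 6 region lists, and 1 of the 30 passed by Pearson's r. By Spearman's rho 4 more passed, each with an adjusted p of 0.0168. They were Grin2c with cortex and hippocampus (rho = -0.797, r = -0.688) and with brainstem and spinal cord (0.791, 0.722), and Grin3a with cerebellum (-0.786, -0.437) and with cortex and hippocampus (0.777, 0.563). The brainstem and spinal cord markers were dim, with 0 of 6 above the array median on every array. No rho without untreated replicate 3 is given for these 4 relations. For Grin2c and cerebellum, leaving out the 2 mice farthest from the marker median, creatine-fed replicate 4 and untreated replicate 3, gave r = 0.845. Within the creatine-fed mice r was 0.923 and within the untreated mice 0.938. The points share array and scaling as well as tissue.

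The relation held for the markers of both main cerebellar neuron types. For genes of granule cells, r was 0.862 with Gabra6 and 0.941 with the transcription factor gene Neurod1, each over 13 mice with permutation p of 1e-05 and 2e-05. For genes of Purkinje cells it was 0.851 with Pcp2 and 0.911 with the calcium buffer gene Calb1, with permutation p of 1e-05 for both, and Spearman's rho over all 9 markers ran from 0.819 to 0.929. In untreated replicate 3 Pcp2 read 27 but Calb1 still read 1485, so Calb1 cannot be read here as a Purkinje cell gene alone. Without creatine-fed replicate 4 and untreated replicate 3, r over the 9 markers ran from 0.749 to 0.88. In untreated replicate 3, where Gabra6 was at 22, Grin2c still read 164, which is above the 41 that is the median of that array.

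**Figure D2:**
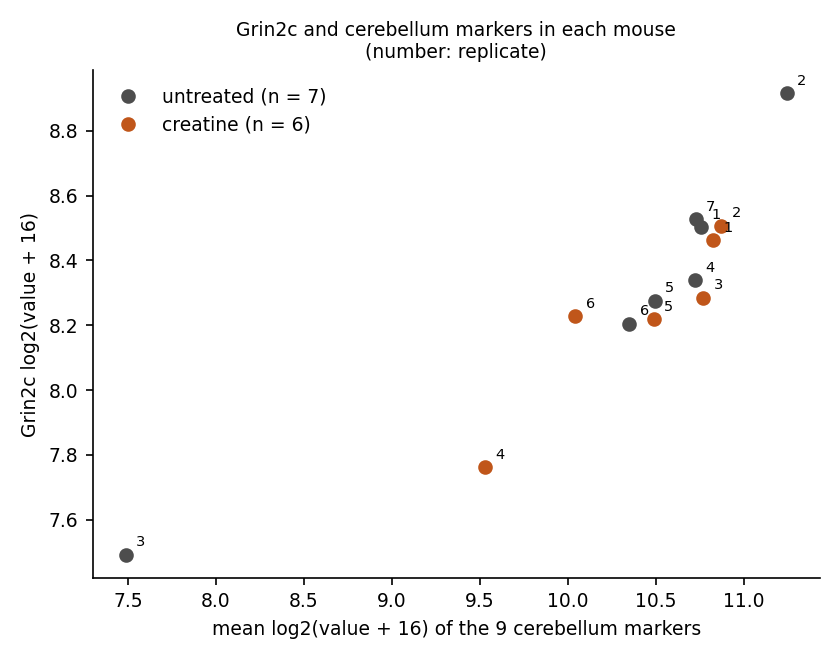
Grin2c, as log2(value + 16), against the mean log2(value + 16) of the 9 cerebellum markers, with 1 point per mouse, coloured by group and numbered by replicate. Mice with low marker levels have low Grin2c (r = 0.906), and untreated replicate 3 and creatine-fed replicate 4 lie apart at the lower left.

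With the cerebellum marker mean as a covariate the Grin2c difference between groups was -0.14, with an unadjusted limma p of 0.137 and an adjusted p of 0.541. Without untreated replicate 3 it was -0.22, and without both untreated replicate 3 and creatine-fed replicate 2 it was -0.27 (adjusted p = 0.485). With the cortex and hippocampus marker mean as a covariate it was 0.14. No direction is therefore given for Grin2c.

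Grin2d encodes GluN2D, the subunit with the slowest decay. Its 2 probe sets gave different pictures. The brighter, 1442328_at, ran from 84 to 128 with a median of 103 in untreated mice and from 84 to 134 with a median of 100.5 in creatine-fed mice. The log2 difference was 0.01 ± 0.11 (SE, 95% interval -0.22 to 0.25, adjusted p = 0.982). The dim probe set, 1421393_at, lay under the median of its own array in all 13 mice. It read from 11 to 39 with a median of 29 in untreated mice and from 3 to 30 with a median of 16 in creatine-fed mice.

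At 1421393_at the creatine-fed mice read 3, 30, 18, 19, 11 and 14 for replicates 1 to 6, so 5 of 6 lay below the untreated mean but only replicate 1 lay below every untreated mouse. The means were 15.8 ± 9.02 (SD, n = 6) and 27.0 ± 9.50 (SD, n = 7). The log2 difference was -0.45 ± 0.20 (SE), with a 95% interval from -0.87 to -0.03, an unadjusted limma p of 0.0364 and an adjusted p of 0.383. The exact 2-sided permutation test gave an unadjusted p of 0.0594. An offset of 50 gave -0.23 and an offset of 1 gave -0.88. Brainstem and spinal cord markers had lower means with creatine in 5 of 6 (median log2 difference -0.53), with a summed intensity of 87 to 422 in untreated and 89 to 197 in creatine-fed mice. Over all genes, 41.5% had higher means with creatine. These 6 markers were dim, with 0 of them above the array median on every array. Slc6a4, for example, had means of 9.5 with creatine and 33 without. Thalamus and midbrain markers were lower in 7 of 7 (median -0.16, summed 1839 to 2161 against 1634 to 2062). At the brighter probe set 1442328_at, Pearson's r over the 13 mice was -0.353 with the brainstem and spinal cord markers. It was 0.413 with the thalamus and midbrain markers. Neither passed the permutation test (adjusted p = 0.307 and 0.261). The part of these markers in the values of 1421393_at was not tested.

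Grin3a encodes GluN3A, a glycine-binding subunit that lowers calcium entry and is most abundant in the young brain. It was read by 3 probe sets. The brightest, 1436575_at, ran from 139 to 164 with a median of 150 in untreated mice and from 115 to 161, also with a median of 150, in creatine-fed mice. Creatine-fed replicate 1, at 115, lay well below the other 5, which ran from 149 to 161. The log2 difference was -0.04 ± 0.08 (SE, 95% interval -0.21 to 0.12, adjusted p = 0.874), and 0.02 without that mouse. Its SD over the 13 mice, 0.12 on the log2 scale, was the smallest of the 11 probe sets.

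The remaining Grin3a probe sets pointed in opposite directions. At 1438866_at the creatine-fed mice ran from 90 to 135 and the untreated mice from 77 to 137, a log2 difference of 0.18 ± 0.12 (SE, adjusted p = 0.589). The highest untreated value there, 137, belonged to replicate 3, and without that mouse the difference was 0.25 with an unadjusted limma p of 0.028 (adjusted p = 0.364). At 1458378_at the creatine-fed mice ran from 33 to 60 and the untreated mice from 40 to 70, a log2 difference of -0.21 ± 0.13 (SE, adjusted p = 0.556). Here 4 of 6 creatine-fed mice lay below every untreated mouse, and 7 of 13 mice were above the median of their array.

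**Figure D3:**
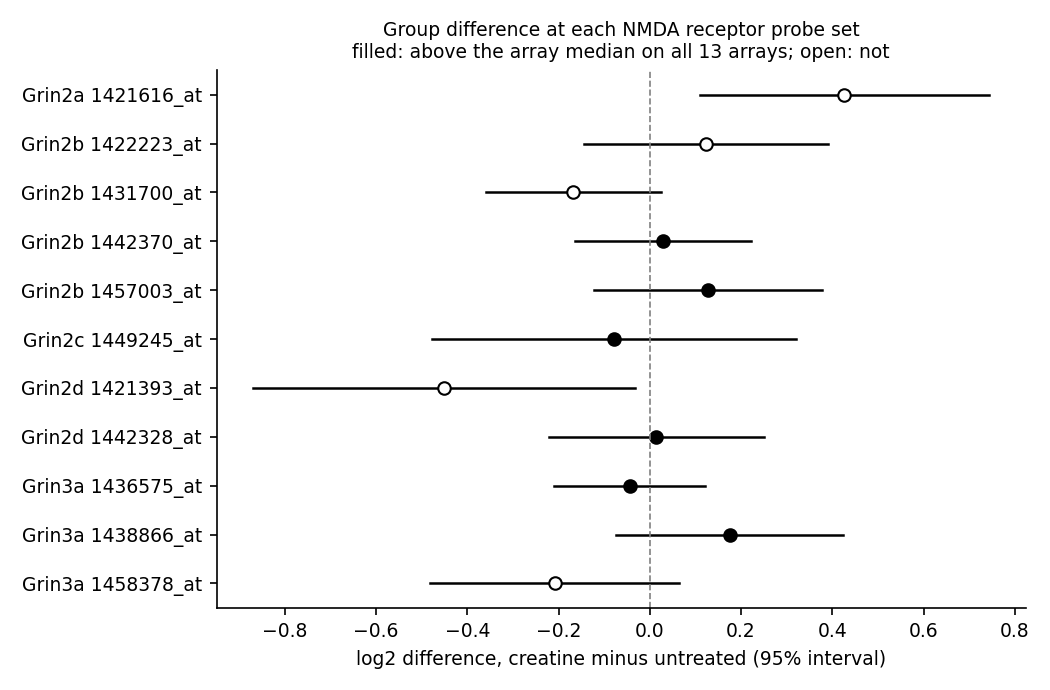
Log2 difference between creatine-fed (n = 6) and untreated mice (n = 7) at each NMDA receptor probe set, with its 95% interval from the limma fit; filled points were above the array median on all 13 arrays and open points were not. The intervals of Grin2a 1421616_at (0.11 to 0.74) and Grin2d 1421393_at (-0.87 to -0.03) leave out 0 before adjustment, and both are open points.

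Probe sets of 1 subunit varied largely apart from each other across mice, but most of their pairs include a probe set that was dim on some or all arrays. Among 10 pairs of probe sets of the same gene, Pearson's r over 13 mice ran from -0.0984 to 0.646, and among 10 pairs of brightest probe sets of different subunits from -0.489 to 0.324. None of these 20 relations passed a permutation test after adjustment. The smallest adjusted p was 0.369 for Pearson's r and 0.246 for Spearman's rho. The highest, between Grin2b 1422223_at and 1442370_at, was 0.646 and became 0.298 without creatine-fed replicate 2 and untreated replicate 6. Others grew when the 2 mice farthest from the median were left out. Without creatine-fed replicate 4 and untreated replicate 6, r of Grin2b 1442370_at went from 0.324 to 0.838 with Grin3a 1436575_at and from -0.16 to -0.764 with Grin2c 1449245_at. Of the same-gene pairs, only those of Grin2b 1442370_at with 1457003_at and Grin3a 1436575_at with 1438866_at were above the array median on all 13 arrays at both probe sets. Their r was 0.19 and 0.453.

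Among 11150 other genes of the brighter probe sets, those whose levels followed each subunit most closely over the 13 mice were ranked by Pearson's r, as a description. No test was made, and the highest of 11150 values over 13 mice is large even for unrelated genes. For Grin2c they were Hopx (0.964), St18 (0.963) and the cerebellar transcription factor gene Zic1 (0.962), which is also among the 9 markers. For Grin2a they were Ptbp3 (0.901), the synaptic adhesion gene Lrrc4 (0.898) and Slitrk1 (0.897). Grin2b was followed by Fkbp9 (0.824), Rc3h2 (0.795) and Fam102a (0.792), Grin2d by Igsf11 (0.875), Csf2ra (0.858) and Ipo9 (0.836), and Grin3a by Zscan22 (0.879), Fam71f1 (0.874) and Ints11 (0.853). The values for Grin2c exceeded those for every other subunit. With group means removed, those for Grin2a fell to 0.833, 0.840 and 0.835, while those for the other subunits changed little or rose.

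Genes that anchor, transport, modify and regulate the receptor were read from 6 lists with 59 genes, of which 53 were measured, each at its brightest probe set. At the brightest probe set none passed the limma test, where 0.0055% of all genes did. Over all 168 probe sets of these genes 1 passed, Mef2c 1451506_at, beside 0.00888% of all probe sets. The lists, Mef2c included, were chosen with earlier results of these data known, so this comparison of shares is not a test. At the brightest probe set and an unadjusted p under 0.05 there were 9, or 17.0%, beside 11.2% of all genes. Of the 9, 5 were higher with creatine (3.58% of all genes) and 4 lower (7.61%). Means were higher in 37 of 53 beside 41.5% of all genes, and the median log2 difference was 0.06 beside -0.03. With arrays centred on their medians these became 42 of 53 beside 57.5%, and with the cortex and hippocampus covariate 32 of 53 beside 41.3%.

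The scaffolds that hold receptors in the postsynaptic density had higher means in 12 of 15 members (median log2 difference 0.07). With the cortex and hippocampus covariate this was 10 of 15 with a median of 0.015. After centring arrays on their medians it was 14 of 15 (median 0.12), beside 57.5% of all genes. Without creatine-fed replicate 2 and untreated replicate 3 it was 14 of 15 (median 0.11), beside 43.1%. Of the general neuron markers, 5 of 8 had lower means with creatine (median -0.13); their part in the scaffold values was not tested. Dlgap2 and Dlgap3, which link PSD-95 to Shank proteins, read 171 ± 17.6 against 130 ± 24.9 and 441 ± 74.6 against 357 ± 42.5 (SD, creatine n = 6, untreated n = 7). Their log2 differences were 0.37 ± 0.11 and 0.29 ± 0.11 (SE), with unadjusted limma p of 0.00523 and 0.0179 and adjusted p of 0.237 and 0.315. Homer1, a scaffold that binds Shank, differed by 0.19 at its brightest probe set, and Neto1, an auxiliary protein of glutamate receptors, by 0.20. Homer1 was higher at 5 of its 6 probe sets, by 0.27 at 1439662_at (adjusted p = 0.213). Dlg4, which encodes PSD-95, differed by 0.14 (adjusted p = 0.648).

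The transport list, the motor Kif17 that carries GluN2B vesicles and the adaptors Lin7a, Lin7b, Lin7c, Cask and Apba1, had higher means in 6 of 6 members at the brightest probe set, each by a small amount. The differences ran from 0.03 for Lin7a to 0.12 for Apba1, and the smallest unadjusted limma p was 0.188 (adjusted 0.626), for Lin7b. Cask differed by 0.10 and Lin7c by 0.08. All of these values are for the brightest probe set, and the shared direction depended on that choice. Lin7b was higher at 1 of its 4 probe sets. It differed by -0.12 at 1418683_at, which was nearly as bright (untreated mean 370 against 372). Apba1 was higher at 1 of 3 and Cask at 3 of 4, with -0.22 for Cask at 1422519_at. Lin7c was higher at 3 of 4, and Kif17 and Lin7a at 3 of 3.

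Genes that supply or clear the co-agonists glycine and D-serine had lower means in 7 of 9 members (median log2 difference -0.10, or -0.05 after centring arrays on their medians). Shmt1, which interconverts serine and glycine, differed by -0.38 with an unadjusted limma p of 0.0407 and an adjusted p of 0.396, and the glycine transporter gene Slc6a9 by -0.16 with an unadjusted limma p of 0.0468 and an adjusted p of 0.412. Slc7a10, a transporter of small amino acids including D-serine, differed by -0.11, while Srr, the serine racemase that makes D-serine, differed by 0.12. With the cortex and hippocampus covariate 6 of 9 were lower (median -0.055) and none had an unadjusted limma p under 0.05. Of the astrocyte markers, 5 of 6 also had lower means (median -0.061, summed intensity 6516 to 7990 in untreated and 6221 to 7103 in creatine-fed mice); their part in the co-agonist values was not tested. The other 3 probe sets of Shmt1 were dim and differed by -0.08 to 0.01. Srr, given above at its brightest probe set, was higher at 5 of its 6 probe sets, and none of them passed the limma test. It differed by 0.37 at 1438549_a_at, 0.28 at 1438550_x_at and 0.19 at 1419664_at, but by -0.20 at 1458393_at.

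Among kinases and phosphatases of the receptor, 8 of 11 had higher means (median 0.07), and 6 of 11 with the cortex and hippocampus covariate (median 0.016). After centring arrays on their medians 9 of 11 were higher (median 0.12), beside 57.5% of all genes. Csnk2a1, a catalytic subunit of casein kinase 2, had the widest difference of all 53 genes, 0.60 ± 0.16 (SE) at 1419038_a_at, with an unadjusted limma p of 0.002 and an adjusted p of 0.195. Its other bright probe sets went the other way, by -0.05 at 1419036_at and -0.12 at 1419037_at. Csnk2a1 was higher at 4 of its 6 probe sets. The dim ones differed by 0.25 at 1419034_at, 0.27 at 1419035_s_at and 0.41 at 1453427_at. Prkaca, which encodes a cAMP-dependent kinase, differed by -0.17 with an unadjusted limma p of 0.0322, the tyrosine kinase gene Ptk2b by 0.22 and Fyn by 0.07. Camk2a, the calcium-dependent kinase that binds GluN2B, differed by 0.12 at its brightest probe set (adjusted p = 0.776). Camk2a was higher at 6 of its 6 probe sets, and none of them passed the limma test. The differences ran from 0.05 at 1443876_at to 0.42 at 1442707_at, with 0.33 at 1452453_a_at and 0.31 at 1437125_at.

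Among genes that couple calcium entry to signalling, 5 of 7 had higher means (median 0.06), and 4 of 7 without creatine-fed replicate 2 and untreated replicate 3 (median 0.029). With the cortex and hippocampus covariate 4 of 7 were higher (median 0.042). After centring arrays on their medians 6 of 7 were higher (median 0.12), beside 57.5% of all genes. Creb1 differed by 0.24 at its brightest probe set and by -0.42 at 1428755_at (adjusted p = 0.056), the guanine nucleotide exchange factor genes Kalrn and Rasgrf1 by 0.14 and -0.08, and Nos1, the neuronal nitric oxide synthase, by 0.06.

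Of 5 transcription factor genes that bear on subunit genes, Mef2c, which encodes an activity-regulated factor of neurons, had higher means at all 5 of its probe sets. At 1451506_at, a dimmer probe set of the gene, untreated mice ran from 434 to 621 with a median of 505 and creatine-fed mice from 684 to 997 with a median of 844.5. Every creatine-fed mouse lay above every untreated mouse. The means were 840 ± 107 (SD, n = 6) and 509 ± 60.6 (SD, n = 7), and Mef2c rose there by 0.71 ± 0.10 on the log2 scale (SE, limma adjusted p = 0.0419). The adjusted p passed under 7 of 25 alternatives and ranged from 0.00035 to 0.254, while the log2 difference stayed between 0.65 and 0.76. Leaving out any 1 mouse other than creatine-fed replicate 4 or untreated replicate 1 ended the call, with adjusted p from 0.0571 to 0.138.

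The other Mef2c probe sets did not pass. At 1421028_a_at the log2 difference was 0.51 (limma adjusted p = 0.125), and at the brightest, 1421027_a_at, it was 0.30 with an unadjusted limma p of 0.0024 and an adjusted p of 0.201. At their brightest probe sets Rest, a repressor of neuronal genes that was above the array median in 8 of 13 mice, differed by 0.33, Sp1 by 0.32 and Nrf1 by -0.23 with an unadjusted limma p of 0.0173. None of these 3 passed, and the smallest adjusted p among them was 0.312. Rest was higher at 1 of its 4 probe sets and Nrf1 at 2 of 4. Sp1 was higher at 3 of 3, but by only 0.06 at 1454852_at, which was about as bright (untreated mean 295 against 285).

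**Figure D4:**
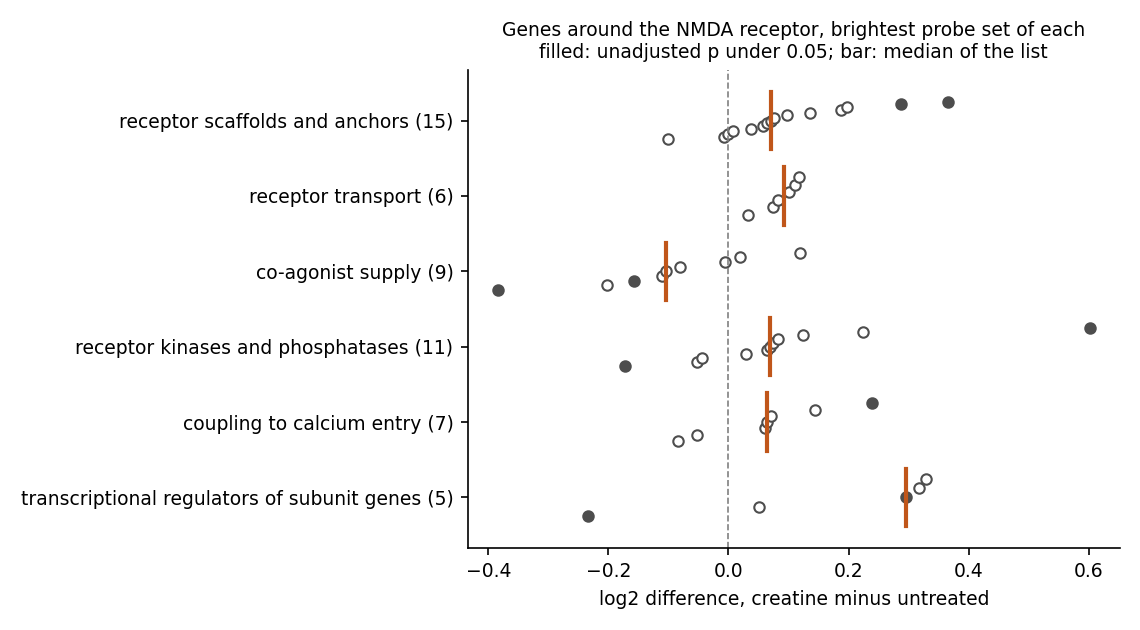
Log2 difference between creatine-fed and untreated mice for the 53 measured genes of the 6 lists, 1 point per gene at its brightest probe set, filled where the unadjusted limma p is under 0.05, with the list median as a bar and the number of genes in brackets. Medians are above 0 for 5 lists, from 0.06 to 0.30, and at -0.10 for co-agonist supply.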

How the data were processed

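Intensities deposited by the authors were linear whole numbers with zeros, 1 per probe set and array. Every array had the same mean, 150.05, after trimming 2% at each end. The submitters' processing notes name RMA only, which returns log2 values, so they do not describe this table; the scaling tool is not given in the sources used here. Biotin-labelled cRNA was hybridized, per the labels' protocols.

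The 64 control probe sets were set aside. An offset of 16 was added, log2 taken, and 45037 probe sets fitted with limma 3.58.1 (lmFit, eBayes) in R 4.3.3, 2-sided, without covariates or a second scaling. Symbols came from the platform's probe table, updated through Entrez IDs; 34945 probe sets carry 1 symbol, 932 several and 9160 none listed. Correlations were computed in Python 3.11.15 with 100000 permutations, 2-sided; those with region markers were added after seeing the data. The fit was tested on simulated data.

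Members, gene lists, alternatives and the naming rule (all member probe sets, up to 4 genes a list by smallest p, and 3 closest patterns a subunit) were chosen with earlier results of these data known. Dlg4, Camk2a, Kif17, Lin7a and further probe sets (Mef2c 1451506_at among them) of listed genes were named after their values were seen. Separate animals are as labelled, and the number of arrays limits precision.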

Additional observations from a re-analysis of the deposited data

Results flagged for a closer look

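Each member probe set was screened in each group for a mouse whose gap to its nearest neighbour is large beside the range of the group. Of 22 such groups 1 was marked, where chance marks about 1 in 20. At Grin3a 1436575_at, creatine-fed replicate 1 read 115, and the nearest of the other 5 creatine-fed mice read 149; the gap was 0.767 of the range on the log2 scale, above Dixon's 95% critical value for 6 samples.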

How the results depend on the processing

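No NMDA receptor probe set passed under any of the 25 alternatives run, and Grin2a 1421616_at kept its sign in all 24 that tested it (log2 difference 0.26 to 0.60, adjusted limma p 0.168 to 0.471), as did Grin2d 1421393_at (-0.88 to -0.23, adjusted p 0.261 to 0.521). The brighter part of the table, 22535 probe sets, held 7 of the 11 and neither of these. The count at an unadjusted p under 0.05, 2 as reported, was 0 there and 1 with an offset of 1, after quantile normalization, after centring arrays, with the cortex and hippocampus covariate and with the Gapdh 3'/5' covariate; it was 3 with the cerebellum covariate and 3 when creatine-fed replicate 2 and untreated replicate 3 were both left out, and leaving out 1 mouse gave 1 to 3. Signs turned for differences near 0: Grin3a 1436575_at after centring (0.0074); Grin2d 1442328_at with array weights (-0.010), the Gapdh covariate (-0.011) and the cortex covariate (-0.088); Grin2b 1442370_at (-0.025) and Grin2c (0.14) with the cortex covariate. Leaving out 1 mouse gave -0.055 to 0.064 for Grin2d 1442328_at, -0.22 to 0.020 for Grin2c, -0.025 to 0.069 for Grin2b 1442370_at and -0.069 to 0.018 for Grin3a 1436575_at. Same-numbered mice did not deviate together (correlations -0.0552 to 0.146; 1 of 6 correlated best with its own number). With the replicate block the counts were 0 past the threshold and 2 at an unadjusted p under 0.05 for the subunits, and Mef2c 1451506_at did not pass (adjusted p = 0.254). Among the other genes of the receptor, eBayes with trend and robust called 1 at its brightest probe set, Mef2c 1421027_a_at (0.30, adjusted p = 0.0368), where 0 passed as reported; Mef2c 1451506_at, which passed as reported, did so under 7 of 25 alternatives, examined after seeing the data; the count at an unadjusted p under 0.05, 9 as reported, ran from 6 to 13. Pearson's r of Grin2c with the cerebellum markers ran from 0.9 to 0.929 over its 18 alternatives, which were chosen after seeing the data. The cause of these shifts was not tested. Grin1 was not analysed here, and dim probe sets limit what can be read for Grin2a.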
